A study of Mus musculus with 4 samples.

Results

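The genes described here are 43 genes of mitosis: its kinases and cyclins, the kinetochore, the spindle and its motors, the anaphase machinery, and condensin with Top2a. They were chosen by symbol, as named rows of the count tables, and all 43 were among the 41543 symbols counted. Messenger RNA had been sequenced from E14TG2a mouse embryonic stem (ES) cells, kept in serum with the cytokine LIF on gelatin. The 2 libraries of genotype Control were compared with 2 libraries of genotype KAT6A KO, made by CRISPR/Cas9 editing of KAT6A, a histone acetyltransferase gene. The labels do not say how the control cells were handled, whether the KO cells are a single clone, or whether replicates were grown as separate cultures. The p-values therefore cover the spread between these 4 samples alone, and that spread may be technical.

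In mitosis a cell condenses its replicated chromosomes, attaches them to the microtubules of the spindle through kinetochores, and separates the sister chromatids. Cyclin B with Cdk1 starts the process, the Aurora and Polo-like kinases order its steps, and the spindle checkpoint holds anaphase back until every kinetochore is attached. Most of these genes are transcribed late in the cell cycle, under the MuvB complex with B-Myb and FoxM1, and ES cells, which divide fast, express them at high level. Since RNA was taken from whole cultures, fewer cells in mitosis and less RNA per mitotic cell cannot be told apart.

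Libraries held between 27494041 and 37354623 counts. Levels are given in CPM, read counts scaled to a common library size. The libraries labelled KAT6A KO replicate 1 and replicate 2 are written as labelled KO 1 and labelled KO 2. Control levels of Kat6a itself were 145 and 143 CPM, while labelled KO 1 reached 242 CPM and labelled KO 2 stood at 86.4 CPM (log2 fold change 0.19 ± 0.41 SE, edgeR adjusted p = 0.77). Labelled KO 1 goes against its label. Where in the gene the edit lies was not known here, so counts over the whole gene may not report it, and all directions below rest on the labels. The ES cell markers (7 of 7 tested) summed to 4237 to 4242 CPM in the controls and to 5182 and 5677 CPM in labelled KO 1 and 2, and 2 rose, Esrrb and Dppa5a. Markers of endoderm (7 of 7 tested) summed to 823 to 846 CPM in the controls against 275 and 475 CPM, and 4 fell. Markers of trophoblast (6 of 7 tested) summed to 87.1 and 93.0 CPM against 71.5 and 77.3 CPM, and 2 fell. Fibroblast markers (4 of 8 tested) summed to 21.7 to 21.8 CPM against 30.0 and 25.3 CPM, none passed the test, and Lum had 0 counts in all 4 libraries. The part of these shifts in the mitotic values was not tested.

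Most mitotic transcripts lay close to their control level in the KO libraries. All 43 genes passed the filter on low counts, and 6 were called, that is, had an adjusted p below the threshold of 0.05 in edgeR's test over 16112 genes. Cdc25b, Cenpa, Pttg1 and Ncapd2 rose, and Top2a and Birc5 fell. That is 14.0% of the genes, beside 14.3% of all genes tested, of which 5.76% were called higher and 8.57% lower. Log2 fold changes of KO over control had a median of 0.11, beside 0.0055 over all genes tested, and 27 of the 43 values were above 0, beside 50.4% of all genes. The values ran from -0.55 for Top2a to 0.78 for Cdc25b, so every one of the 43 stayed within 2-fold of its control level. An unadjusted p under 0.05 was found for 17 (edgeR), beside 33.9% of all genes. DESeq2 called the same 6 genes and Incenp, beside 17.1% of all genes.

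Both KO libraries lay above both controls for 22 of the mitotic genes (beside 31.5% of all genes tested) and below them for 10 (beside 32.8%), so the groups did not overlap for 32, beside 64.3% of all genes tested. The controls lay close together, with a median gap of 0.034 on the log2 scale and a largest gap of 0.11. The KO libraries lay further apart, with a median gap of 0.20 and a largest of 0.57. The median over the 43 genes was 0.054 in labelled KO 1 and 0.18 in labelled KO 2, beside -0.00044 and -0.0037 over all genes tested. The calls depended on the control pair: without control replicate 1 or without control replicate 2, Cdc25b alone was called, with 5.64% of all genes called in each case. Without labelled KO 1 the spread came from the controls alone, and 23 genes rose and 11 fell, with 50.1% of all genes called. Without labelled KO 2, 13 rose and 6 fell, with 43.9% of all genes called.

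**Figure D1:**
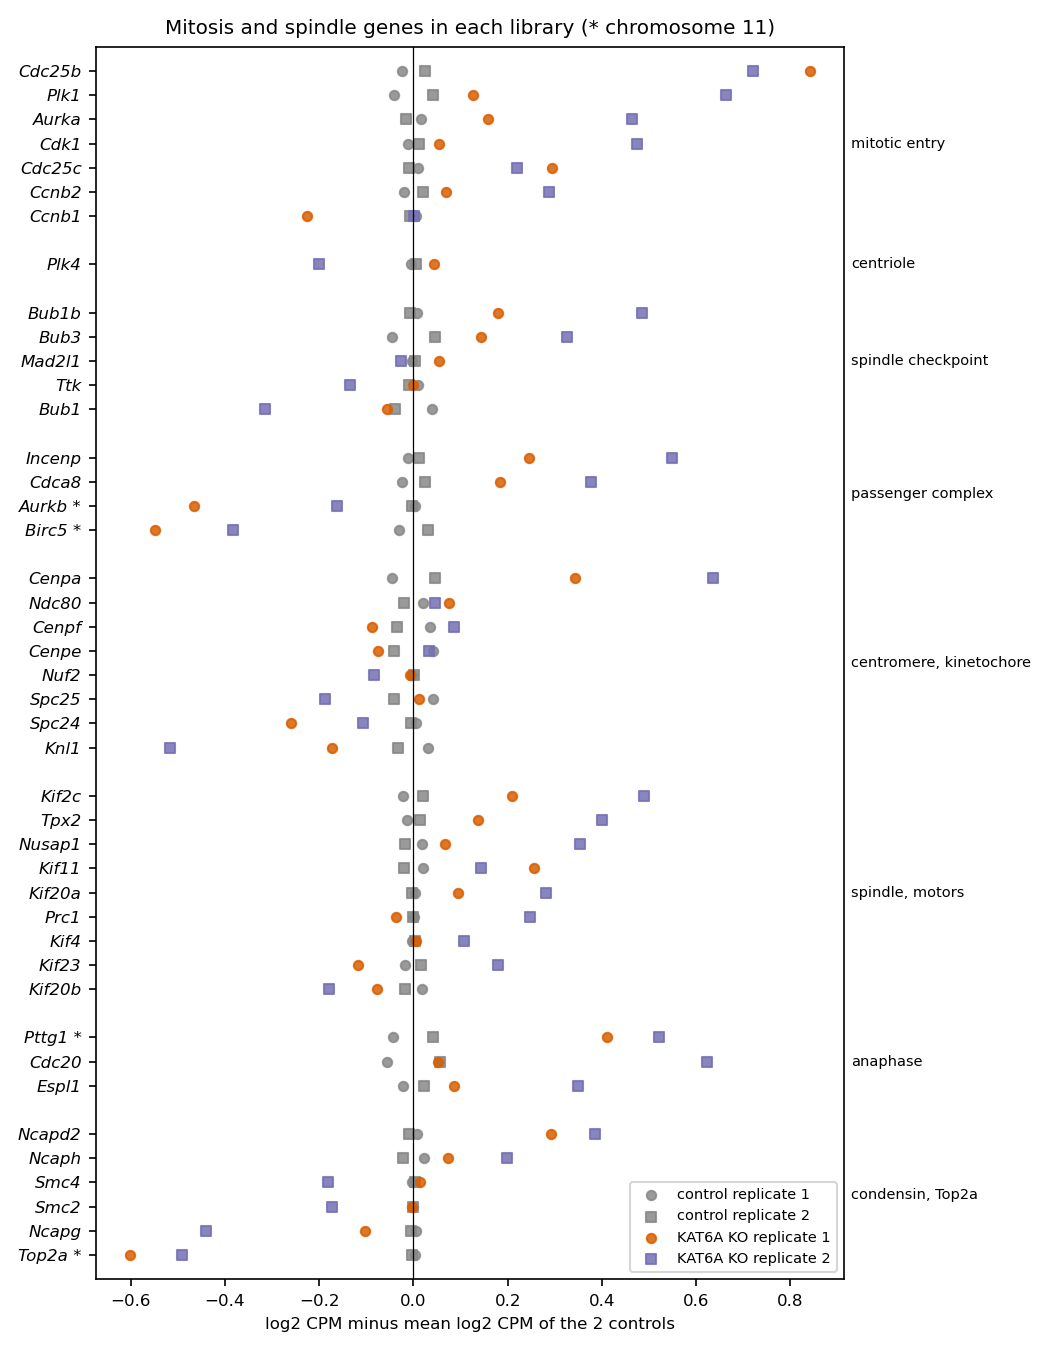
Each point is 1 library's log2 CPM minus the mean of the 2 controls, for the 43 genes in the order of their role; grey marks controls, orange labelled KO 1 and purple labelled KO 2, and an asterisk marks chromosome 11. The controls stay within 0.11 of each other, while the KO libraries are up to 0.57 apart, with Cdc25b at the far right and Top2a at the far left.

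By its title the study is about how KAT6A finds CpG islands free of methylation, which many promoters lie in, so the promoters of the 6 called genes are shown, each as the 250 bases before the start of transcription in RefSeq on GRCm38.p6, 5′ to 3′ on the gene's strand. Capitals mark CCAAT boxes (CCAAT), which bind the factor NF-Y, and the letters of the cell cycle genes homology region (TTTGAA or TTCGAA), to which MuvB binds. Each motif was searched on both strands, and no match to one motif overlaps a match to the other here.

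Cdc25b, chr2:131186698-131186947, plus strand: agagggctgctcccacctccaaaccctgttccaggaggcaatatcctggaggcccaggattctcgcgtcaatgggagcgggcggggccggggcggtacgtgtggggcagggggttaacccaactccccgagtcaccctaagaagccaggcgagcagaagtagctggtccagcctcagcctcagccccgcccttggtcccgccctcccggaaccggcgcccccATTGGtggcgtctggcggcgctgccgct

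Cenpa, chr5:30666636-30666885, plus strand: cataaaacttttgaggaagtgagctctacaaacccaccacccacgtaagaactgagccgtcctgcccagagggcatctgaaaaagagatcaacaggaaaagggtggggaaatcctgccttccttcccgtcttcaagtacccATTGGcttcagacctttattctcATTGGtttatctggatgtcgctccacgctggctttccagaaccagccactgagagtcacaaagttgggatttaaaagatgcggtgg

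Pttg1, chr11:43425982-43426231, minus strand: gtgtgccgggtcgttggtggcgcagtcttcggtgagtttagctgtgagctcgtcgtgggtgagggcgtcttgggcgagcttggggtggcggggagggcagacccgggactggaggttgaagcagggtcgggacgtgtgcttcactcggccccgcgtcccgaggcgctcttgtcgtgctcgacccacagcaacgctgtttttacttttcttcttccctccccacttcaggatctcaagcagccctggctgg

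Ncapd2, chr6:125191587-125191836, minus strand: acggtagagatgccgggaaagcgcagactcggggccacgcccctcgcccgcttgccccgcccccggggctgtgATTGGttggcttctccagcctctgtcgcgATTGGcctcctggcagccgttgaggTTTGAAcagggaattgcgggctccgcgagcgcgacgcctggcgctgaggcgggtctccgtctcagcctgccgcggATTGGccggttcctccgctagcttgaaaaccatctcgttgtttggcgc

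Top2a, chr11:99024190-99024439, minus strand: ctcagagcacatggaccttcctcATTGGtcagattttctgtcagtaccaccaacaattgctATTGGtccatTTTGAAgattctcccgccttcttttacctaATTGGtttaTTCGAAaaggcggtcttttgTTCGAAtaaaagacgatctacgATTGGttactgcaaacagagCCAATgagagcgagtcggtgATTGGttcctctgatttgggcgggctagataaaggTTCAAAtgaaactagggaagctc

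Birc5, chr11:117848987-117849236, plus strand: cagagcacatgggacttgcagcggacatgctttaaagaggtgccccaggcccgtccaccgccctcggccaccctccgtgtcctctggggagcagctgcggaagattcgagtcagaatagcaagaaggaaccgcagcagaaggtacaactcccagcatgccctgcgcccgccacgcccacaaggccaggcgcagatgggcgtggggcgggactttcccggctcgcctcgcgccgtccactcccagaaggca

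Top2a carried 6 CCAAT boxes and 4 homology region matches in this window, and Ncapd2 carried 3 and 1. Cenpa had 2 CCAAT boxes and Cdc25b had 1, while Pttg1 and Birc5 had no match to either motif in this window. Genes that fell were thus found with these letters and without them, while among the genes that rose Pttg1 alone had none. The Pttg1 window lies wholly within the gene as annotated in GENCODE M21 (43420250 to 43426251). Bases before that annotated start were therefore not searched. The windows of Cenpa and Ncapd2 run in part into the annotated genes, which begin at 30666777 and, on the minus strand, at 125191701. In both, not all marked letters lie before the annotated start.

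RefSeq windows were found for 36 of the 43 genes, with 38 starts. CCAAT was present in 27 of these starts (71.1%), beside 35.1% of the promoters of genes tested and 33.8% of all promoters in windows of the same length. A homology region match was present in 14 (36.8%), beside 12.4% and 17.1%, and both motifs together in 13 (34.2%), beside 4.73% and 6.02%. The median ratio of observed to expected CpG was 0.844, beside 0.684 for genes tested and 0.374 for all promoters. It ran from 0.142 for Kif2c to 1.06 for Ndc80, and Cenpa, which rose, had 0.404. Some windows, those of Kif2c, Cdca8 and Pttg1 among them, lie wholly within the annotated gene. Their values do not describe the bases before the annotated start. These are descriptions of letters, not of binding.

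Of the 7 genes of mitotic entry, Cdc25b rose and the other 6 did not pass the test. Cdc25b encodes a phosphatase that removes the inhibitory phosphates from Cdk1. Its control levels of 27.3 and 28.2 CPM compare with 49.8 and 45.8 CPM in labelled KO 1 and 2. The groups stood far apart, and it rose 1.72-fold (log2 fold change 0.78 ± 0.10 SE, edgeR adjusted p = 0.011). In the GENCODE M21 annotation of GRCm38, Cdc25b spans 131186949 to 131198497 on chromosome 2. It was called under all 17 alternative settings, with log2 fold changes from 0.68 to 0.84.

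Cdc25c, the related phosphatase, had 36.6 and 36.1 CPM in the controls and 44.6 and 42.3 CPM in the KO libraries, without overlap, and did not pass (log2 fold change 0.26, edgeR adjusted p = 0.11). Plk1, the Polo-like kinase of mitotic entry, stood at 145 and 153 CPM in control cells, at 163 CPM in labelled KO 1 and at 236 CPM in labelled KO 2. Cdk1, the central mitotic kinase, had 214 and 218 CPM, then 224 and 300 CPM. Aurka, the kinase of spindle poles, had 198 and 194 CPM, then 219 and 270 CPM. In all these kinases labelled KO 1 stood slightly above the controls and labelled KO 2 well above, and none passed the test (log2 fold changes 0.42, 0.28 and 0.32, edgeR adjusted p = 0.14, 0.21 and 0.11).

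The B-type cyclins, which activate Cdk1, had log2 fold changes on either side of 0. Ccnb2 had 156 and 160 CPM in the controls and 166 and 193 CPM in the KO libraries. Control levels of Ccnb1 were 149 and 148 CPM, beside 127 CPM in labelled KO 1 and 149 CPM in labelled KO 2. Neither passed (log2 fold changes 0.18 and -0.11, edgeR adjusted p = 0.24 and 0.48), and with an offset for transcript GC content Ccnb1 was at 0.041. The Ccnb1 value is uncertain, because its transcript matches annotated pseudogenes, Ccnb1-ps at 99.2% identity over 1287 bases among them, and reads may be shared. Over the 7 genes of mitotic entry the median was 0.13 in labelled KO 1 and 0.46 in labelled KO 2.

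The spindle checkpoint and the centriole kinase gave no call. Bub1b, which encodes the checkpoint protein BubR1, had 286 and 283 CPM in the controls and 322 and 398 CPM in the KO libraries (log2 fold change 0.34, edgeR adjusted p = 0.094). Bub3, its partner at kinetochores, had 181 and 193 CPM, then 206 and 234 CPM (0.24, edgeR adjusted p = 0.14). Bub1, the kinase that brings BubR1 to the kinetochore, lay on the other side. It had 219 and 208 CPM in the controls and 205 and 171 CPM in the KO libraries (-0.18, edgeR adjusted p = 0.28). With an offset for transcript GC content the Bub1 value was 0.055.

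Mad2l1, whose product Mad2 restrains Cdc20, and Ttk, the kinase that starts checkpoint signalling, had log2 fold changes of 0.015 and -0.066. In both, the KO values overlapped the controls. Mad2l1 is uncertain too, as it matches the pseudogene Gm42430 at 95.4% identity over 454 bases. Plk4, the kinase that licenses centriole duplication, stood at 102 and 103 CPM in control cells, 105 CPM in labelled KO 1 and 89.0 CPM in labelled KO 2 (log2 fold change -0.073, edgeR adjusted p = 0.66).

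The 4 genes of the chromosomal passenger complex parted by chromosome. The complex carries Aurora B kinase on the scaffold protein Incenp, with survivin and borealin placing it at the inner centromere. Birc5, which encodes survivin and lies on chromosome 11, had 191 and 200 CPM in the controls and 133 and 150 CPM in labelled KO 1 and 2. The groups did not overlap, and Birc5 fell 1.38-fold (log2 fold change -0.46 ± 0.09 SE, edgeR adjusted p = 0.026). With control replicate 1 or 2 left out Birc5 lost its call (edgeR adjusted p = 0.12 and 0.21).

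Aurkb, the Aurora B gene and also on chromosome 11, had 107 and 106 CPM in the controls and 77.1 and 95.2 CPM in the KO libraries. Both KO values were below the controls, but the test was not passed (log2 fold change -0.31 ± 0.12 SE, edgeR adjusted p = 0.12). Incenp, on chromosome 19, had 271 and 275 CPM in the controls and 323 and 399 CPM in the KO libraries (log2 fold change 0.40 ± 0.11 SE, edgeR adjusted p = 0.063). Cdca8, the borealin gene on chromosome 4, had 184 and 190 CPM, then 212 and 243 CPM (0.28 ± 0.09 SE, edgeR adjusted p = 0.092). Incenp and Cdca8 were above the controls in both KO libraries without passing. Incenp was called higher with DESeq2 (adjusted p = 0.023) and in the authors' deposited table, for which the submitters name DESeq2 too.

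Among the 8 centromere and kinetochore genes, Cenpa rose and the rest did not pass. Cenpa encodes the histone H3 variant that marks centromeric chromatin. Control levels were 107 and 114 CPM, against 141 CPM in labelled KO 1 and 172 CPM in labelled KO 2. The groups did not overlap, and Cenpa rose 1.41-fold (log2 fold change 0.50 ± 0.12 SE, edgeR adjusted p = 0.039). The gene spans 30666777 to 30674830 of chromosome 5 in GRCm38. With control replicate 1 or 2 left out Cenpa lost its call (edgeR adjusted p = 0.21 and 0.095), as it did without the genes of chromosome 11 in the fit, where its log2 fold change was 0.46 (edgeR adjusted p = 0.060). The log2 fold change was 0.34 without labelled KO 2.

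The microtubule-binding core of the kinetochore stayed near its control level. The Ndc80 complex genes Ndc80, Nuf2, Spc24 and Spc25 had log2 fold changes of 0.061, -0.045, -0.18 and -0.084, none with a call. Ndc80 had 80.9 and 78.6 CPM in the controls and 84.1 and 82.4 CPM in the KO libraries. Knl1, the scaffold that carries Bub1 and BubR1, went from 90.0 and 86.1 CPM in control cells to 78.0 CPM in labelled KO 1 and 61.5 CPM in labelled KO 2. Both KO values lay below the controls, and the test was not passed (log2 fold change -0.33 ± 0.13 SE, edgeR adjusted p = 0.12). With the GC-content offset the Knl1 value was 0.012 (edgeR adjusted p = 0.92). Cenpe, a kinetochore motor, and Cenpf, a large kinetochore protein, had log2 fold changes of -0.020 and 0.00096, with KO values on both sides of the control mean.

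None of the 9 genes of spindle motors and spindle-binding proteins was called. Log2 fold changes were above 0 for 8 of the 9, beside 50.4% of all genes tested. An unadjusted p under 0.05 (edgeR) was found for 2, Kif2c and Tpx2, beside 33.9% of all genes. DESeq2 called none of the 9 either. Kif2c, a microtubule-depolymerizing kinesin, had 115 and 119 CPM in the controls and 135 and 164 CPM in the KO libraries (log2 fold change 0.36, edgeR adjusted p = 0.078). Tpx2, which activates Aurora A on the spindle, had 297 and 302 CPM, then 329 and 395 CPM (0.27, edgeR adjusted p = 0.13). Kif11, the motor that pushes the spindle poles apart, had 301 and 293 CPM, then 354 and 328 CPM (0.20, edgeR adjusted p = 0.15).

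Kif20a, Nusap1, Prc1, Kif4 and Kif23, genes of the central spindle and of microtubule bundling, had log2 fold changes from 0.038 to 0.22. Kif20b, a kinesin of cytokinesis, had 228 and 222 CPM in the controls and 213 and 199 CPM in the KO libraries (log2 fold change -0.13, edgeR adjusted p = 0.32). It alone among the 9 lay below the controls in both KO libraries, and its value was 0.17 with the GC-content offset. The median of the 9 genes was 0.067 in labelled KO 1 and 0.25 in labelled KO 2.

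Of the 3 anaphase genes, Pttg1 rose. It encodes securin, which holds the protease separase inactive until anaphase. Pttg1 had 46.1 and 48.9 CPM in the controls and 63.2 and 68.2 CPM in labelled KO 1 and 2. The groups did not overlap, and it rose 1.38-fold (log2 fold change 0.47 ± 0.09 SE, edgeR adjusted p = 0.027), with the call ending without control replicate 1 or 2 (edgeR adjusted p = 0.31 and 0.17). Espl1, the separase gene, had 196 and 202 CPM in the controls and 211 and 254 CPM in the KO libraries (0.22, edgeR adjusted p = 0.20). Cdc20, which activates the anaphase-promoting complex, stood at 202 and 218 CPM in control cells, 217 CPM in labelled KO 1 and 323 CPM in labelled KO 2. It showed the widest gap between the KO libraries, with labelled KO 1 inside the control range (0.36 ± 0.18 SE, edgeR adjusted p = 0.20).

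Top2a, the most abundant of the 43, fell, and a condensin subunit rose. Topoisomerase II alpha, the product of Top2a, untangles sister DNA. Top2a had 1228 and 1222 CPM in the controls and 807 and 871 CPM in labelled KO 1 and 2. The groups stood apart by far more than either pair differed, and Top2a fell 1.46-fold (log2 fold change -0.55 ± 0.08 SE, edgeR adjusted p = 0.015). With control replicate 1 or 2 left out Top2a lost its call (edgeR adjusted p = 0.10 and 0.099), as it did after an offset for transcript GC content, where the log2 fold change was -0.38 (0.054).

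Condensin I winds chromatin into loops, with Smc2 and Smc4 as its core ATPases and Ncapd2, Ncapg and Ncaph as its other subunits. Ncapd2, on chromosome 6, had 324 and 320 CPM in the controls and 394 and 421 CPM in the KO libraries, and rose 1.26-fold (log2 fold change 0.34 ± 0.08 SE, edgeR adjusted p = 0.042). With control replicate 1 or 2 left out Ncapd2 lost its call (edgeR adjusted p = 0.41 and 0.42), as it did under the same offset (0.059) and without the genes of chromosome 11, where its log2 fold change was 0.31 (edgeR adjusted p = 0.066). None of the other subunits passed the test. Ncapg had 138 and 137 CPM in the controls and 128 and 102 CPM in the KO libraries (-0.26, edgeR adjusted p = 0.18). Smc2 had 389 CPM in each control, then 388 and 345 CPM. Smc4 had a log2 fold change of -0.080 and Ncaph 0.14. With the GC-content offset all 5 condensin genes had values above 0 and none was called. The values were 0.24 for Ncapd2, 0.19 for Ncapg, 0.20 for Smc2, 0.19 for Smc4 and 0.17 for Ncaph. They lay near the median of 0.20 over all 43 genes in that fit, where 39 of the 43 were above 0.

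**Figure D2:**
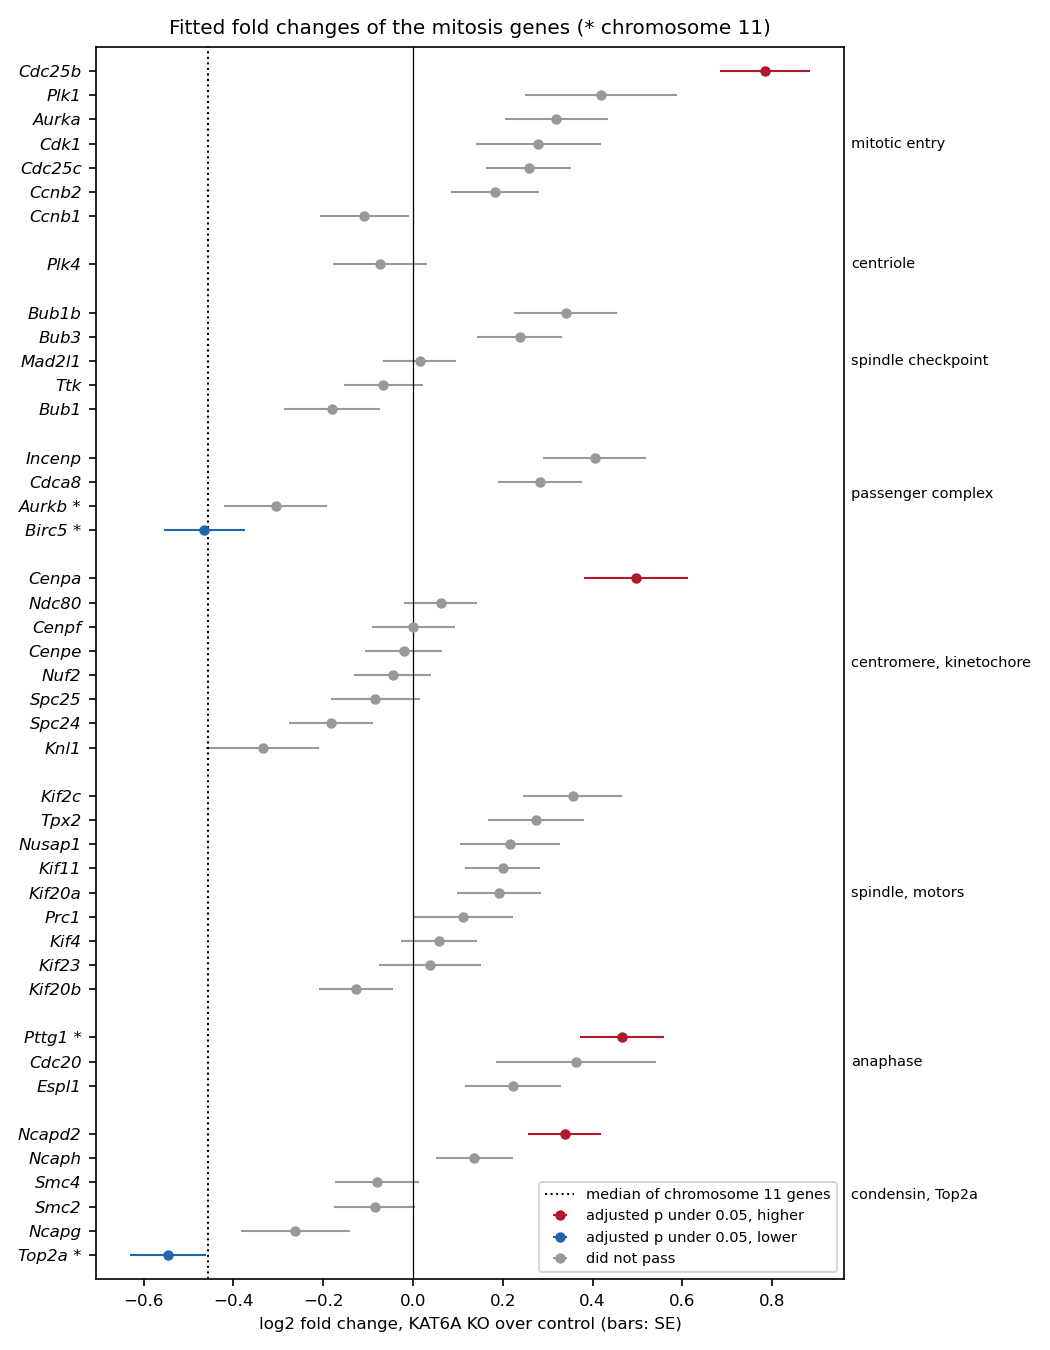
Log2 fold changes (KO over control) with their SE for the 43 genes by role; red and blue mark genes called higher and lower, grey those that did not pass, and the dotted line is the median of chromosome 11 genes. Top2a at -0.55 and Birc5 at -0.46 lie beside that line, while Pttg1, also on chromosome 11, lies at 0.47.

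Both mitotic genes that fell are on chromosome 11. The chromosome as a whole was lower, with a median log2 fold change of -0.46 over 1322 tested genes, of which 40.5% were called lower and 0.681% higher. Birc5, at 117849251 to 117855743, differed from that median by -0.0088, and Top2a, at 98992943 to 99024189, by -0.090. Aurkb, at 69045647 to 69051664, lay 0.15 above it. In order of fold change these 3 ranked at 48.7%, 38.7% and 69.5% of the chromosome's tested genes, so each stood in its middle range.

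Pttg1, at 43420250 to 43426251, stood 0.92 above the chromosome median, at 97.4% of its tested genes, and was among the 9 genes of chromosome 11 called higher. The 4 other tested genes that start within 500 kb of Pttg1 had a median of -0.41, and 2 of them were called lower. Around Top2a 22 such neighbours had a median of -0.46, around Aurkb 26 had -0.38, and around Birc5 16 had -0.29. Off chromosome 11, 3 of 39 mitotic genes were called higher and none lower (7.69%). Of all 14790 genes tested there 11.9% were called, 919 higher and 845 lower. An unadjusted p under 0.05 (edgeR) was found for 13 of the 39, beside 4626 of the 14790, and of the 13 only Knl1 was lower. The median log2 fold change of the 39 was 0.14, beside 0.038 over all genes tested there. DESeq2 called none of the 39 lower, and neither did the authors' deposited table, for which the submitters name DESeq2 too, so these are not independent. When chromosome 11 was left out of the fit, an alternative added after seeing the data, Cdc25b alone was called, with 8.22% of all genes called. Cenpa and Ncapd2 kept most of their size in that fit (log2 fold changes of 0.46 and 0.31, beside 0.50 and 0.34) and lost only the call.

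**Figure D3:**
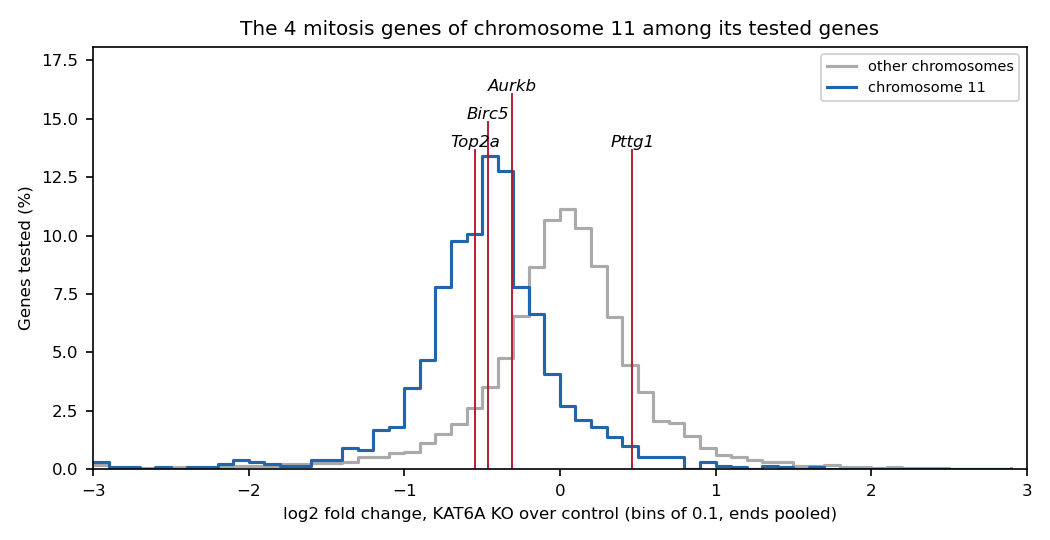
Share of tested genes (percent) in bins of the log2 fold change for chromosome 11 (blue) and other chromosomes (grey), with the 4 mitotic genes of chromosome 11 as red lines. Top2a, Birc5 and Aurkb fall within the body of the blue curve, around its median of -0.46, and Pttg1 at 0.47 falls in its upper tail.

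The values also followed the GC content of the transcripts, as they did over all genes. Across the 43 genes, which share libraries and are not independent, Pearson's r between GC content and the log2 ratio to the controls was 0.291 in labelled KO 1 and 0.704 in labelled KO 2, and 0.525 for the small differences between the controls. Over all genes tested it was 0.177, 0.388 and 0.0763. The 11 mitotic genes at or above the median GC content of genes tested (49.9%) had a median log2 fold change of 0.34, and the 32 below it 0.026, beside 0.14 and -0.12 for all genes so divided. Plk1, Cdc20, Espl1 and Incenp are among the GC-rich genes, and Ncapg (34.8% GC) and Knl1 (37.7%) are the most GC-poor. Values above 0 were found for 9 of the 11 and for 18 of the 32. Below 0 among the GC-rich genes were Spc24 (52.9% GC, -0.18) and, on chromosome 11, Aurkb (52.5% GC, -0.31). With the GC-content offset, 39 of 43 values were above 0, beside 52.7% of all genes, and the median was 0.20, beside 0.022 over all genes. With it Cdc25c and Kif11 were called higher besides Cdc25b, Cenpa and Pttg1, Birc5 remained lower, and Top2a and Ncapd2 lost their calls, with 13.9% of all genes called.

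**Figure D4:**
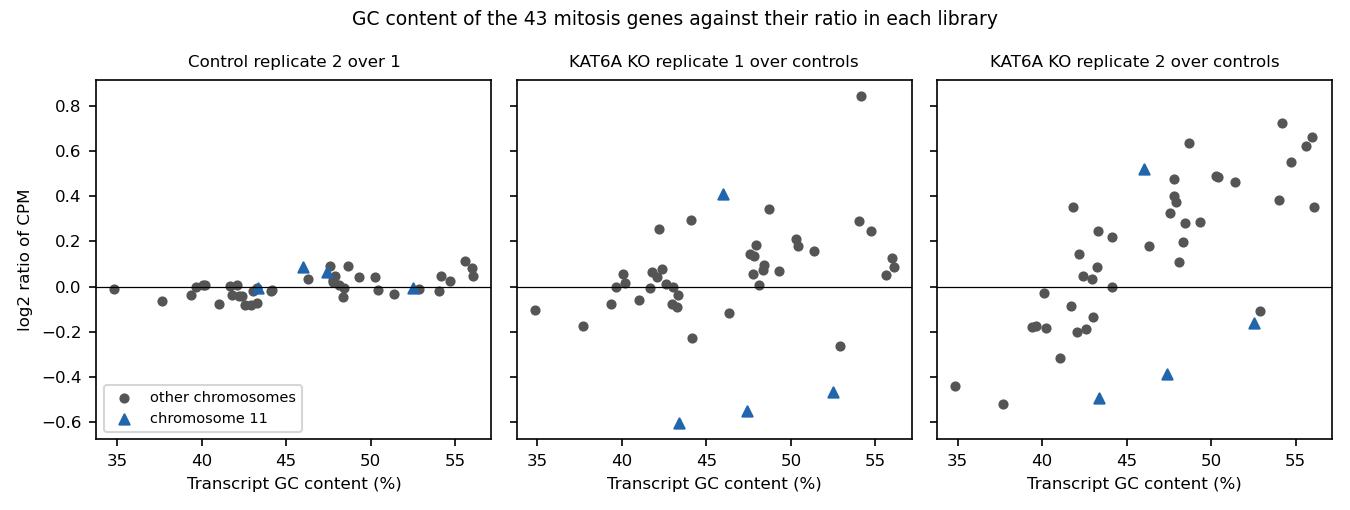
Each point is 1 of the 43 genes, with transcript GC content (percent) on the x axis and the log2 ratio of CPM on the y axis, for control replicate 2 over 1 and for each KO library over the control mean; triangles mark chromosome 11. The slope is steepest in labelled KO 2 (r = 0.704), and in labelled KO 1 the triangles of Top2a, Birc5 and Aurkb lie below all other points, while in labelled KO 2 Knl1 is lowest.

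Levels can be compared between genes only per length, here as CPM per kilobase of annotated exon. In the controls Top2a was highest (136), followed by Cdc20 (112), Ccnb2 (103) and Aurka (77.4). Cdc25b (7.45) and Cdc25c (7.40) were lowest, and these neighbours in the order did not differ beyond the spread of the controls. In the KO libraries the mean level of Top2a was 93.1 and that of Cdc20 was 145, so the order of these genes turned. Cdc20, however, differed between the KO libraries by a ratio of 1.48. Cdc25b reached 12.8, above Cdc25c at 8.84.

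Other genes of the same pathway held fewer calls, a difference that was not tested. Of 146 further mitotic genes, all tested, 8 rose and 4 fell (8.22%, beside 14.3% of all genes tested), with a median log2 fold change of 0.070. All 4 that fell, Cdc27, Mis12, Tubg1 and Hmmr, lie on chromosome 11, where 10 of the 146 are found and all 10 had values below 0. Of the 136 on other chromosomes 8 rose and none fell (5.88%), beside 11.9% of the 14790 genes tested there. An unadjusted p under 0.05 (edgeR) was found for 39 of the 136, of which 9 were lower, beside 4626 of the 14790. Cdc27, a subunit of the anaphase-promoting complex, had 206 and 203 CPM in the controls and 123 and 93.1 CPM in the KO libraries (log2 fold change -0.92, edgeR adjusted p = 0.014). Mis12, of the complex that joins the Ndc80 complex to the centromere, and Hmmr, a spindle-binding protein, had log2 fold changes of -0.47 and -0.38. Tubg1, the gamma tubulin gene, had -0.45.

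Among the 22 regulators of mitotic transcription 2 were called (9.09%, beside 14.3% of all genes tested). Mybl2 rose. It encodes B-Myb, the partner of MuvB, and went from 489 and 516 CPM in the controls to 782 and 913 CPM in the KO libraries, without overlap (log2 fold change 0.76 ± 0.10 SE, edgeR adjusted p = 0.012). Nfyc, an NF-Y subunit, rose by 0.43, and the other 20 of 22 regulators did not pass, among them Foxm1 (0.29, edgeR adjusted p = 0.069) and Lin54 (-0.39, edgeR adjusted p = 0.052). These 2 were chosen after their values were seen.

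Of the other kinetochore genes Cenpt, which links centromeric chromatin to the Ndc80 complex, rose by 0.43 and Pmf1, a partner of Mis12, by 0.45. Kifc1, a minus-end motor, rose by 0.48, Fam83d, a spindle protein, by 0.43, Pcnt, the pericentrin gene of the centrosome, by 0.41, and Ncaph2, of condensin II, by 0.45. Among the lists without a call, the most abundant genes were Ccnf (0.27), Zwint (-0.013) and Anln (-0.20).

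Earlier steps of the cell cycle are given for comparison. Of 40 replication genes 5 were called (12.5%, beside 14.3% of all genes tested), and the median of the 40 was 0.058. Mcm7 and Mcm3 rose, and Orc5, Cdc6 and Rpa1 fell. The last 2 lie on chromosome 11, where 40.5% of tested genes were called lower. Of 9 cyclins and kinases of the step into replication, with the Rb gene, 3 were called (33.3%, beside the same 14.3%). Cdk4 rose by 0.47, Ccnd2 fell by 2.18 on the log2 scale and Ccne2 by 0.82. Whether the mitotic genes differ from these lists was not tested.

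The authors' deposited table, whose columns were identified from their values, called 5 of the 43 genes higher and 2 lower, beside 17% of the genes with an adjusted p in it. It added Incenp (adjusted p = 0.023) to the 6 genes named above. For Cdc25b it gives a log2 fold change of 0.74 and for Top2a -0.52.

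**Figure D5:**
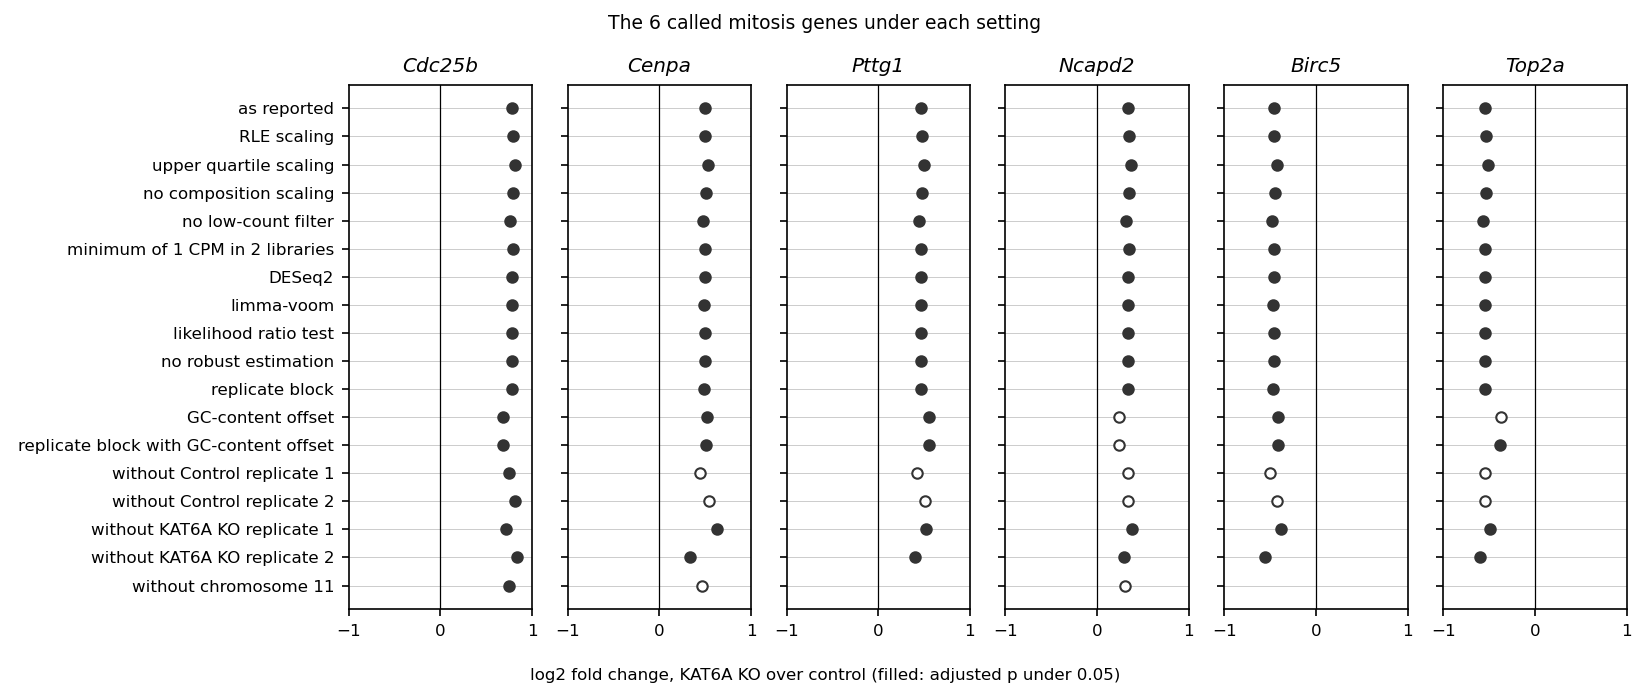
Log2 fold change (x axis) of the 6 called genes under each analysis setting (y axis), filled where the adjusted p was under 0.05. Cdc25b is filled throughout, at 0.68 to 0.84, and the other 5 are open when either control is left out.

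Counting could blur some of these values. In GENCODE M21, 10 of the 43 genes overlap a protein-coding gene on the opposite strand, and whether counting used strand was not known here. Kif20a shares sequence with Cdc23, which had 3939 to 5465 counts per library, and Kif4 with Pdzd11. Of the called genes Cdc25b overlaps Spef1, which had 85 to 132 counts per library against 971 to 1516 for Cdc25b. In a search of annotated transcripts, matches of at least 95% identity over at least 300 bases elsewhere in the genome were found for 2 genes, Ccnb1 and Mad2l1.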

How the data were processed

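RNA was sequenced from 2 control and 2 KAT6A KO libraries, grouped and numbered by the sample titles. Per the labels' protocols, RNA was column-purified with DNase and a TruSeq Stranded mRNA kit was used. The deposited counts are whole reads per gene symbol, and featureCounts and DESeq2 are named, with no version, in the submitters' processing notes. For the aligner, build, annotation and strand setting, the sources used here give nothing. The authors' deposited normalized signal stood in 1 fixed ratio to the counts within each library, within 1% for 100% of counted symbols, and was not used further. The authors' deposited comparison, without a header, was read as mean signal, log2 fold change, its standard error and Wald statistic (scores), p-value and adjusted p-value. Replicates differed beyond sampling noise (mean chi-square per gene 3.70 for the control pair and 34.4 for the KO pair) and count as separate samples.

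The count test was that of edgeR 4.0.16 under R 4.3.3: filterByExpr by group (16112 genes), TMM factors, the robust quasi-likelihood test with group only, Benjamini-Hochberg adjustment over all genes tested and a threshold of 0.05. Standard errors are the fold change over the root of F. Alternatives used DESeq2 1.42.0, limma 3.58.1, other scalings and filters, a GC-content offset (lowess span 0.3 on the longest transcript), a replicate block and each library left out. Positions, exon lengths and GC content came from GENCODE M21 on GRCm38 by symbol (97.3% found), promoters from RefSeq on GRCm38.p6. Tables and plots were made in Python 3.11.15, and the fit was checked on simulated counts.

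The 43 genes and all lists were chosen with earlier results of these data known. All 43 genes may be named. Of the other mitotic genes, each group gave its called gene with the smallest adjusted p per direction, or else its most abundant gene. Where a count of 5 or fewer stood, the remaining called genes are named as well, and were then chosen after their values were seen.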

Additional observations from a re-analysis of the deposited data

How the results depend on the processing

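Most of the 17 alternatives changed a single choice. DESeq2 brought its own scaling, filter, model and test (14690 genes with an adjusted p), and limma-voom its own model and test. The GC-content offset also left out genes without a GC value (15886 tested), and another alternative joined it with the replicate block. Scaling, filtering, DESeq2, limma-voom and the fit without robust estimation kept all 6 called genes, as did the likelihood ratio test. The replicate numbers gave no evidence of pairing (a correlation of deviations of 0.095 between same-numbered libraries, with 2 pairs). With the replicate number as a block 10 mitotic genes were higher and 4 lower (beside 23.3% of all genes called), and over all genes 1613 and 2147. The block with the GC-content offset gave 8 higher and 3 lower (beside 16.7% of all genes called). The GC-content offset alone gave 5 higher and 1 lower (beside 13.9%). The likelihood ratio test called 1666 genes higher and 2175 lower over all genes. Without chromosome 11 the mitotic genes gave 1 higher and 0 lower (beside 8.22% of all genes called). Leaving out each library in turn moved the mitotic calls between 1 and 23 higher and between 0 and 11 lower, and all genes between 254 and 4020 higher and between 648 and 4400 lower. In these fits the group with 1 library takes its spread from the other pair.

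The log2 fold changes of 16 mitotic genes, none of them called, changed sign under at least 1 setting, and the cause was not tested. Most were near 0, but Knl1 (-0.33), Ncapg (-0.26) and Bub1 (-0.18) were not. The GC-content offset gave Bub1 0.055, Ccnb1 0.041, Cenpe 0.16, Kif20b 0.17, Knl1 0.012, Ncapg 0.19, Nuf2 0.17, Plk4 0.13, Smc2 0.20, Smc4 0.19, Spc25 0.10 and Ttk 0.11. With the replicate block besides, these were 0.055, 0.032, 0.16, 0.17, 0.012, 0.19, 0.17, 0.13, 0.20, 0.19, 0.10 and 0.11. Cenpe was 0.012 with upper quartile scaling and -0.079 to 0.032 with libraries left out. Cenpf was -0.0016 with limma-voom, -0.020 with no low-count filter, -0.0011 with the replicate block, -0.031 without chromosome 11 and -0.092 to 0.085 with libraries left out. Mad2l1 was -0.0073 with no low-count filter, -0.017 without chromosome 11 and -0.028 to 0.051 with libraries left out. With libraries left out Kif23 ran from -0.12 to 0.18, Prc1 from -0.040 to 0.25, Plk4 from -0.20 to 0.040, Smc4 from -0.18 to 0.012 and Spc25 from -0.19 to 0.0091. Every mitotic gene had at least 971 counts (the lowest, for Cdc25b) per library. What part of the spread between libraries came from depth was not tested.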
